A study of Homo sapiens with 2 samples.

Results

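The miR-200 family (hsa-miR-200a, hsa-miR-200b, hsa-miR-200c, hsa-miR-141 and hsa-miR-429), hsa-miR-203 and hsa-miR-205 were examined on miRNA arrays of MKN1, a cell line established from human gastric cancer. They were found by exact match of these names, written below without the species prefix, and each of the 7 matched 1 probe of 1329 in all (879 mature and 450 precursor probes). The cells had been kept for 24 h under hypoxia (1% O2) or under normoxia (20% O2), with 1 array per condition and no other treatment named in the labels. The values are signals that the authors normalized on global signal intensity, on a linear scale, with 20 as the lowest listed value and 0 where no signal is listed. Because each condition had 1 array, no test between conditions was possible, none of the differences below has a replicate check, and the precision of the values is limited by the number of arrays.

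These miRNAs are known for holding epithelial cells in their state. The miR-200 family represses ZEB1 and ZEB2, zinc finger proteins that switch off the E-cadherin gene, and the ZEB proteins in turn bind E-box motifs in the promoters of the miR-200 genes, so that each side holds down the other. miR-205 is described to act on the same ZEB genes and miR-203 on SNAI2, another repressor of E-cadherin. Loss of these miRNAs is a known feature of the epithelial-mesenchymal transition (EMT), in which epithelial cells take on the shape and movement of mesenchymal cells.

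The mature sequences are shown because the family falls into groups by seed, the bases 2 to 8 from the 5′ end with which a miRNA pairs with its targets, and these groups cut across its genomic loci. The sequences are those of RefSeq (GRCh38.p14) for the arm that each older array name stands for, with the seed in capitals. All 7 miRNAs were matched in that table, and the probe sequences themselves were not analysed here.
miR-200b: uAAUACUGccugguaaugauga
miR-200c: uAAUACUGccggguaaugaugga
miR-429: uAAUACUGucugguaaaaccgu
miR-200a: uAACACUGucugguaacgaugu
miR-141: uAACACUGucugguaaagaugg
miR-203: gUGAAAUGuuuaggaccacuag
miR-205: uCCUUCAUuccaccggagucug

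miR-200b, miR-200c and miR-429 share the seed AAUACUG, which no other of the human mature miRNAs in the table has, and miR-200a and miR-141 are the 2 miRNAs with the seed AACACUG. The seeds of both groups differ by U4C, with positions counted from the 5′ end of the miRNA and miR-200b as the first sequence. Outside the seed some members are near copies of each other. Over 22 bases, miR-200b differs from miR-200c at 2 positions (U11G and A22G) and miR-200a from miR-141 at 2 positions (C17A and U22G), whereas miR-200b differs from miR-429 at 6. How far a probe for one of these near copies also binds the other was not tested, so the values within such a pair may not be independent. miR-203 and miR-205 share neither seed, and differ from each other at 19 of 22 positions.

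By genome position the family has another division. On the plus strand of chromosome 1 (GRCh38.p14), miR-200b (chr1:1167160-1167181), miR-200a (chr1:1167916-1167937) and miR-429 (chr1:1169055-1169076) lie within 1917 bases, inside the annotated long non-coding RNA gene MIR200BHG. On the plus strand of chromosome 12, miR-200c (chr12:6963742-6963764) and miR-141 (chr12:6964155-6964176) lie within 435 bases, inside the long non-coding RNA gene MIR200CHG. miR-205 lies at chr1:209432166-209432187 inside MIR205HG, and miR-203 at chr14:104117469-104117490, where the annotation also holds MIR203B. Each miR-200 locus thus has a member of either seed group.

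The E-box bound by ZEB and SNAI proteins was searched as CACCTG and its reverse complement CAGGTG in the windows from 250 bases before to 50 bases after the start of the host genes. It is shown because both miR-200 loci hold it. MIR200BHG had 2 matches and MIR200CHG had 1, while MIR205HG had none in its window, and 20.6% of 35116 human promoters of this length held at least 1. The matches are given with the motif in capitals and 12 bases on either side, on the plus strand. A match is a description of the letters, and binding was not measured in these arrays.
MIR200BHG, chr1:1162763-1162792: gcccaggggacaCACCTGtcgggggccagg
MIR200BHG, chr1:1162807-1162836: agcgggagctcgCACCTGtgtggggcgggg
MIR200CHG, chr12:6963155-6963184: ggcaggaggacaCACCTGtgcgcagggtgg

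Over the whole array, 663 probes gave a signal in both conditions, 174 just under hypoxia and 2 just under normoxia, and the signals summed to 1001867 under hypoxia and 1149819 under normoxia. The median log2 fold change of hypoxia over normoxia of the 663 probes was 0.14 and not 0, with an interquartile range from -0.35 to 0.57. All 7 mature miRNAs had a signal on both arrays. Signals of different probes depend on how each probe binds and are not compared as amounts. The signals of the 7 miRNAs ran from 87.7 to 856 under hypoxia and from 93.3 to 1203 under normoxia, against a median over the 663 probes of 357 under hypoxia and 314 under normoxia.

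Signals of this size were also listed for miRNAs typical of other cell types. Of 6 miRNAs known from blood cells, 4 had a signal on both arrays, from 162 to 621 under hypoxia and from 242 to 921 under normoxia, 1 (miR-144) had 22.7 under hypoxia and was listed at 0 under normoxia, and miR-451, which is defining for red cells, was at 0 on both. Of 4 muscle miRNAs, all had a signal on both arrays, from 77.7 to 442 under hypoxia and from 46.7 to 155 under normoxia. The summed signal of the blood list was 1189 under hypoxia and 1760 under normoxia, and that of the muscle list was 856 under hypoxia and 426 under normoxia. The part of cross-binding or background in the signals of the epithelial miRNAs was not tested.

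None of the 7 mature miRNAs differed by over 2-fold between the conditions, and on the authors' scaling none by over 1.5-fold. Over all 663 probes, 9.65% were over 2-fold higher and 2.11% over 2-fold lower under hypoxia, and 36.3% differed by over 1.5-fold in either direction. Under hypoxia 3 of the 7 were higher and 4 were lower, and their median log2 fold change was -0.09. Over all 663 probes, 56.3% were higher and 43.6% lower, and the median was 0.14. Among the 510 mature probes alone, 53.5% were higher, with a median of 0.08. The 7 values lay between -0.49 and 0.14. The signs of the smaller differences depended on how the arrays were scaled: 6 of 7 were lower when all log2 fold changes were centred on their median and when the arrays were quantile normalized, all 7 when the trend between fold change and signal was removed by lowess, and 2 of 7 when the arrays were scaled to equal total signal, which moved the median of all probes to 0.33. miR-141 and miR-203 were lower under hypoxia with each of these scalings.

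**Figure D1:**
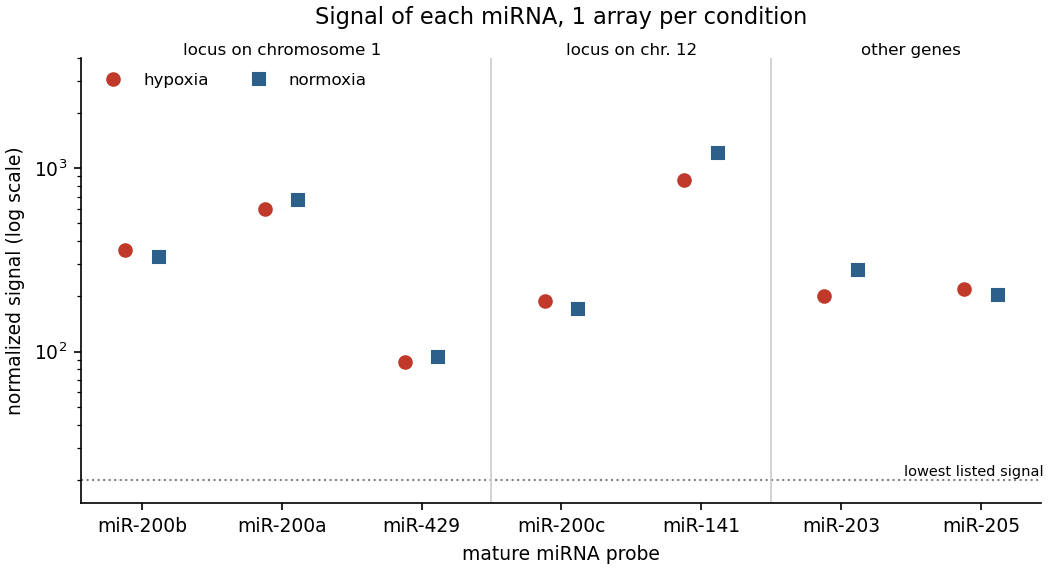
Normalized signal (log scale) of the 7 mature miRNA probes on the hypoxia array (circles) and the normoxia array (squares), in order of locus, with the lowest listed signal of 20 as a dotted line. miR-141 had 856 under hypoxia and 1203 under normoxia and miR-203 had 201 under hypoxia and 278 under normoxia, and the other 5 pairs of points lie closer together.

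At the chromosome 1 locus, miR-200b had a signal of 357 under hypoxia and 329 under normoxia, a log2 fold change of 0.12. miR-200a, of the other seed group, had 600.3 under hypoxia and 668 under normoxia (-0.15). miR-429 was the dimmest of the 7, with 87.7 under hypoxia and 93.3 under normoxia (-0.09). The 3 miRNAs of this locus thus lay within 0.27 of each other on the log2 scale, within 0.41 with quantile normalization and within 0.39 without the trend. For miR-200b, 79 of the 663 probes had a smaller absolute difference between the arrays, for miR-200a 114 and for miR-429 53. For miR-429 this rested on the authors' scaling, since its log2 fold change was -0.46 with quantile normalization and -0.45 without the trend, where 368 and 353 probes differed less. With median centring, quantile normalization or the trend removed, the log2 fold change of miR-200b was between -0.06 and -0.02, and with total signal scaling those of miR-200a (0.04) and miR-429 (0.11) were above 0.

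At the chromosome 12 locus, miR-200c had a signal of 189 under hypoxia and 171 under normoxia, a log2 fold change of 0.14, the highest of the 7 on the authors' scaling. With median centring this value was 0.0035, with quantile normalization -0.15, and without the trend -0.13. miR-141, its neighbour in the genome, had 856 under hypoxia and 1203 under normoxia, a log2 fold change of -0.49 (1.41-fold lower). It was the lowest of the 7 on the authors' scaling, whereas miR-203 was the lowest with quantile normalization (-0.71) and without the trend (-0.70). miR-141 lay between -0.63 (median centring) and -0.29 (total signal scaling) over the alternatives. On the authors' scaling these 2 miRNAs of 1 locus were 0.63 apart on the log2 scale, more than any pair at the chromosome 1 locus. With quantile normalization and without the trend they were 0.37 apart, less than miR-200b and miR-429 (0.41 and 0.39). Of the 663 probes, 360 differed less than miR-141 between the arrays.

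The 2 loci were compared by their mean log2 fold changes. The mean was -0.04 for miR-200b, miR-200a and miR-429 and -0.18 for miR-200c and miR-141, a difference of 0.13 that a single scaling factor between the arrays cannot alter. It was between 0.07 and 0.15 over the alternatives, and under each of them it was smaller than the range of the miRNAs within either locus. Grouped by seed, the mean was -0.32 for miR-200a and miR-141 and 0.06 for miR-200b, miR-200c and miR-429, a difference of -0.38. Both miRNAs with the seed AACACUG had lower log2 fold changes than all 3 with the seed AAUACUG on the authors' scaling. Each seed group holds a pair of near copies, miR-200a with miR-141 and miR-200b with miR-200c, and each pair spans both loci. Values within such a pair may not be independent, and how far this bears on either difference was not tested. The seed difference shrank to -0.15 without the trend and to -0.13 with quantile normalization, and in both cases miR-429 lay below miR-200a. The mean log2 signals of miR-200a (9.31) and miR-141 (9.99) were higher than those of the other 3 (6.50 to 8.42). Other mature probes of similar signal had a median log2 fold change of -0.03 for miR-141 and 0.12 for miR-200a. This median was 0.22 for miR-200b, 0.25 for miR-200c and 0.46 for miR-429. The part of signal in the seed difference was not tested.

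Outside the family, miR-203 had a signal of 201 under hypoxia and 278 under normoxia, a log2 fold change of -0.47 (1.39-fold lower), close to that of miR-141. It lay between -0.71 (quantile normalization) and -0.27 (total signal scaling) over the alternatives. miR-205 had 220.3 under hypoxia and 204 under normoxia, a log2 fold change of 0.11, and -0.03 after median centring and -0.13 with the trend removed. On the authors' scaling the 2 miRNAs thus lay on opposite sides of 0.

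Each value was set beside those of the other mature probes whose mean log2 signal lay within 0.5 of it (61 to 93 probes). miR-200a, miR-200b, miR-200c and miR-205 lay inside the interquartile range of these log2 fold changes. miR-141 lay below it, at -0.49 against a range of -0.36 to 0.31, and so did miR-203, at -0.47 against -0.38 to 0.80, and miR-429, at -0.09 against 0.02 to 0.88. For miR-429 this means that its 2 signals were nearly equal, whereas most probes as dim as it were higher under hypoxia. With the trend removed, the log2 fold change was -0.45 for miR-429, -0.50 for miR-141 and -0.70 for miR-203.

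**Figure D2:**
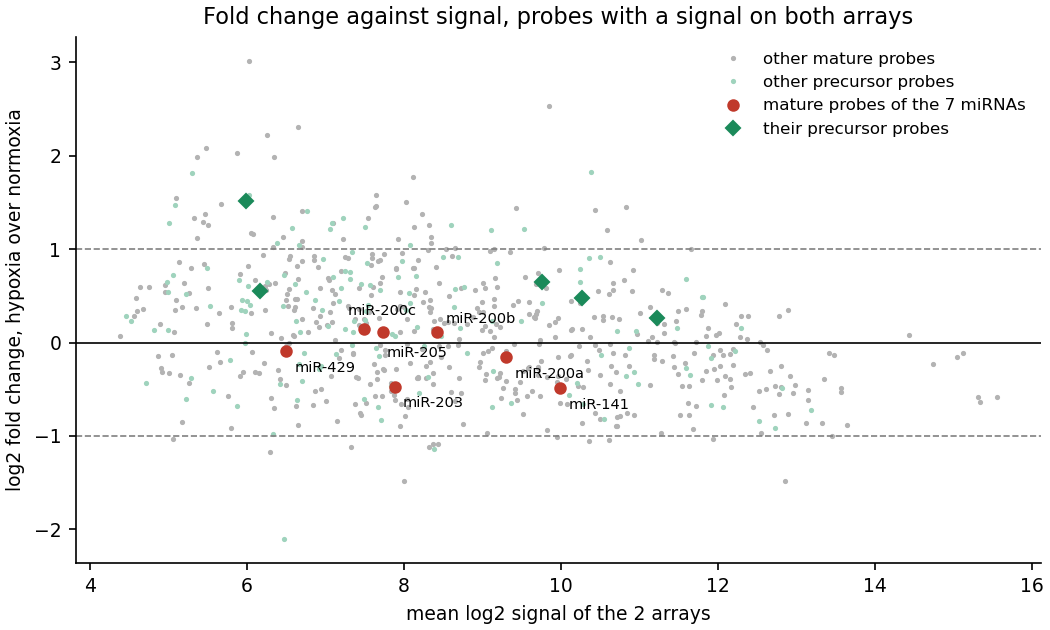
Log2 fold change of hypoxia over normoxia against the mean log2 signal of both arrays for 663 probes, with dashed lines at 2-fold. The mature probes of the 7 miRNAs (red circles) lie between -0.49 and 0.14, and the 5 precursor probes of these miRNAs that had a signal (green diamonds) lie between 0.26 and 1.52.

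The array also held a precursor probe for each of the 7 miRNAs, the precursor being the hairpin from which the mature miRNA is cut. This comparison was chosen after the values were seen. Precursor probes of miR-200a and miR-203 were listed at 0 on both arrays, and the other 5 were higher under hypoxia, as were 65.4% of the 153 precursor probes that had a signal in both conditions. The miR-200b precursor had 1084 under hypoxia and 692 under normoxia (log2 fold change 0.65). The miR-429 precursor, from the same locus, had 108 under hypoxia and 37.7 under normoxia, a log2 fold change of 1.52. At 2.86-fold it was over 2-fold higher, as were 11.8% of the precursor probes, and it ranked 15th from the highest of the 663 probes, with a normoxia signal close to the lowest listed. With 50 added to each signal its log2 fold change was 0.85.

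At the other locus, the miR-200c precursor had 1454 under hypoxia and 1047 under normoxia (0.47), and the miR-141 precursor had 86.7 under hypoxia and 59.3 under normoxia (0.55). The miR-205 precursor was the brightest of them, with 2626 under hypoxia and 2193 under normoxia (0.26). The median of the 5 was 0.55, against 0.28 over the 153 precursor probes. All 5 stayed higher under hypoxia with every scaling, pseudocount and table that was tried. The sources used here do not give what each precursor probe binds besides the hairpin.

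For these 5 miRNAs the log2 fold change of the precursor was above that of the mature miRNA, by 1.61 for miR-429, 1.04 for miR-141, 0.53 for miR-200b, 0.33 for miR-200c and 0.15 for miR-205. Among the 65 other miRNAs whose precursor and mature probes had the same name and a signal on both arrays, 50.8% had the precursor above the mature miRNA, with a median difference of 0.02 and a range from -2.15 to 2.07. The median difference of the 5 was 0.53. For miR-141 the mature probe was lower and the precursor probe higher under hypoxia, and the difference was between 0.65 and 1.04 over the alternatives. The miR-141 precursor (0.55) lay inside the interquartile range of mature probes of similar mean log2 signal, -0.13 to 0.82. Its log2 fold change was 0.17 without the trend and 0.14 with quantile normalization. The miR-205 precursor also lay inside the range for its signal, while the precursors of miR-200b, miR-200c and miR-429 lay above theirs. These ranges are those of mature probes, and none was calculated from precursor probes of similar signal. The median log2 fold change was 0.28 over all precursor probes with both signals and 0.08 over the mature ones.

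**Figure D3:**
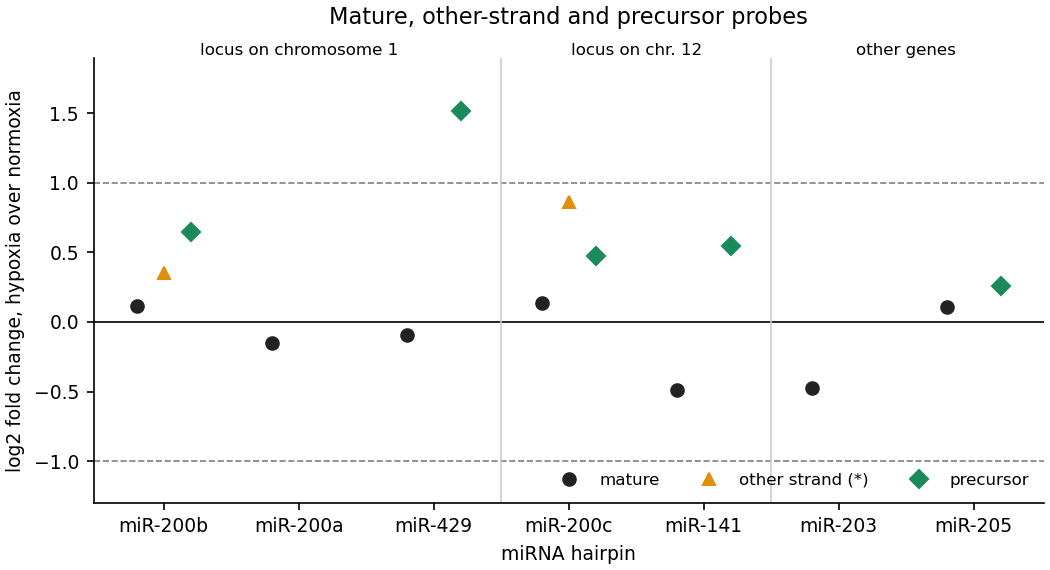
Log2 fold change of hypoxia over normoxia for the mature (circles), other-strand (triangles) and precursor (diamonds) probes of each hairpin, with dashed lines at 2-fold and no point for a probe listed at 0 on an array. In all 5 hairpins with a precursor signal the diamond lies above the circle, by 0.15 for miR-205 up to 1.61 for miR-429.

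The other strand of the hairpin, named with a star on the array, is usually degraded once the mature strand is loaded. The array held it for miR-200a, miR-200b, miR-200c and miR-141. RefSeq sequences of the 3 that matched show that the stars of miR-200a and miR-200b share a seed, AUCUUAC, and that of miR-200c has another.
miR-200a*: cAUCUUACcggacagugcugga
miR-200b*: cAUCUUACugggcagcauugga
miR-200c*: cGUCUUACccagcaguguuugg

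All 4 star probes were dim, with no signal above 84.7. miR-200b* had 84.7 under hypoxia and 66.3 under normoxia, a log2 fold change of 0.35, which was -0.07 with quantile normalization and -0.02 without the trend. miR-200c* had 47.3 under hypoxia and 26 under normoxia (0.86), close to the lowest listed signal under normoxia, and its log2 fold change was 1.06 after total signal scaling and 0.51 with the trend removed. miR-200a* had 28 and miR-141* had 27 under hypoxia, and both were listed at 0 under normoxia, so no fold change was calculated. Of the 664 probes listed at 0 on the normoxia array, 26.2% gave a signal on the hypoxia array.

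Among other miRNAs enriched in epithelial cells, none with a signal on both arrays differed by over 2-fold, where 11.8% of all probes did. The list held miR-96, miR-182, miR-183, miR-375, miR-31, miR-148a, miR-192, miR-194 and miR-215, and 8 of the 9 had a signal on both arrays, 1 higher and 7 lower under hypoxia. Their median log2 fold change was -0.31, against 0.14 over all 663 probes, of which 43.6% were lower. The lowest was miR-194, of the intestinal epithelium, with 197 under hypoxia and 339 under normoxia (-0.78), and the one that was higher was miR-148a, with 984 under hypoxia and 866 under normoxia (0.18). miR-375, known from pancreatic endocrine cells, had 70.7 under hypoxia and was listed at 0 under normoxia.

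Of 16 other miRNAs described to repress ZEB1, ZEB2, SNAI1 or SNAI2, among them the miR-34 and miR-30 families, 5 were higher and 11 lower under hypoxia and none was over 2-fold different, where 43.6% of all probes were lower and 11.8% were over 2-fold different in either direction. The median of this list was -0.31, against 0.14 over all probes. The lowest was miR-30a, with 4400.0 under hypoxia and 7118 under normoxia (-0.69), and the highest was miR-1, with 209 under hypoxia and 110.3 under normoxia (0.92). miR-1 is also one of the muscle miRNAs above. All 4 of those were higher under hypoxia, as were 56.3% of all probes. miR-206 was over 2-fold higher, as were 9.65% of all probes. With the trend removed, 3 of the muscle miRNAs were higher and 1 was lower. miR-192 and miR-215 belong to the list of repressors and to the epithelial one.

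Of 12 miRNAs enriched in mesenchymal cells or described to promote EMT, 8 had a signal on both arrays, 2 higher and 6 lower under hypoxia, at a median of -0.58, against 43.6% lower and a median of 0.14 over all probes. miR-214 was over 2-fold lower, as were 2.11% of all probes, with 912 under hypoxia and 1895 under normoxia (-1.05), and miR-145, known from smooth muscle, was the highest, with 1104 under hypoxia and 735 under normoxia (0.59). miR-10b and miR-155 were listed at 0 under normoxia and had 26 and 44.3 under hypoxia, and miR-199a-3p and miR-199b-5p were at 0 on both arrays. Epithelial and mesenchymal lists thus both had medians below that of all probes, and with the trend removed the medians were -0.23 for the 7 miRNAs, -0.46 for the other epithelial list, -0.18 for the list of repressors and -0.44 for the mesenchymal list, against 0.02 over all probes. The blood cell miRNAs were as low, with all 4 of those with a signal on both arrays lower under hypoxia and a median of -0.57 (-0.82 without the trend), while the median of the 4 muscle miRNAs was 0.83. The lists were chosen with earlier results of these data known, and members of a list differ in signal.

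The mature probe outside the 7 that was nearest to each in both log2 signals was miR-335 for miR-200a, miR-576-5p for miR-200b, miR-455-5p for miR-200c, miR-7 for miR-141, miR-545 for miR-429, miR-99a for miR-203 and miR-29a* for miR-205. The distances were between 0.04 and 0.11 on the log2 scale over the 2 arrays. With 2 arrays such likeness says only that the signals were similar.

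**Figure D4:**
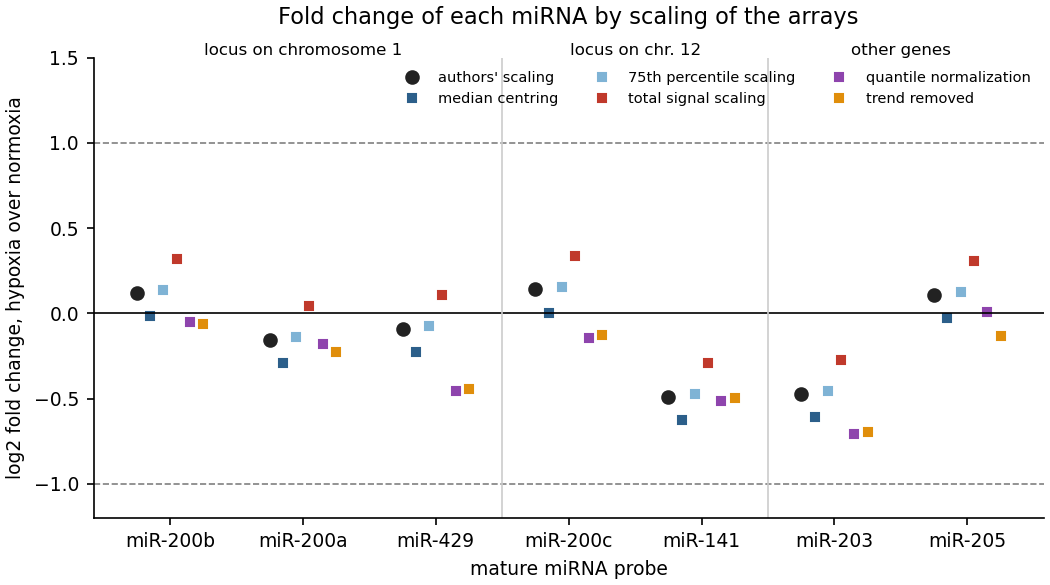
Log2 fold change of hypoxia over normoxia of each mature miRNA on the authors' scaling (black circles) and under 5 alternative scalings (coloured squares), with dashed lines at 2-fold. All points lie inside the 2-fold lines, those of miR-141 and miR-203 are below 0 with each scaling, and those of the other 5 miRNAs lie on both sides of 0.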

How the data were processed

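Biotin-labeled total RNA of MKN1 cells was hybridized to human miRNA arrays from GenoSensor. The authors read the spots with GeneSpring GX, for which no version is given here, and deposited signal intensities on a linear scale, normalized to the global signal of the array. The deposited signals did not sum to the same total on both arrays. With another scaling, a difference near 0 can take the other sign. The signal table and the value table of the series held the same signals for 1329 of 1329 probes, and the ratios, p-values and detection calls that were also deposited were not used. The array files name no genome build.

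Fold changes, as log2 of the hypoxia signal over the normoxia signal, were taken where both arrays listed a signal, with no pseudocount or filter, and 2-fold was taken as threshold from the methods of the study. With 1 array per condition no test was made. Alternatives were median centring, 75th percentile scaling, total signal scaling, quantile normalization, removal of the trend by lowess (span 0.4), pseudocounts of 16 and 50, signals of 0 read as 20, the other table, and for the counts a 1.5-fold threshold, mature probes only and a filter on dim probes. The calculation was tested on simulated data, in which the changes were larger than those of the 7 miRNAs. That test does not bear on differences as small as theirs. Named were the 7 miRNAs, their star and precursor probes, the nearest mature probe to each, and from each list of epithelial, repressor and mesenchymal miRNAs the highest, the lowest and those over 2-fold; other probes were named after their values were seen. The members and lists were chosen with earlier results of these data known. Sequences came from RefSeq, GRCh38.p14. Python 3.11.15 was used with numpy 2.4.6, pandas 2.3.3, statsmodels 0.14.6 and matplotlib 3.10.9.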

Additional observations from a re-analysis of the deposited data

How the results depend on the processing

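No paired analysis was possible because each condition had 1 array. Filters, thresholds and pseudocounts alter counts by construction, and for other values that moved the cause was not tested. No member was over 2-fold under any alternative, and none over 1.5-fold on the authors' scaling. Members that took the other sign were miR-200a (0.045) and miR-429 (0.11) after total signal scaling, miR-200b (-0.018) and miR-205 (-0.027) after median centring, miR-200b (-0.051) and miR-200c (-0.15) once arrays were quantile normalized, and miR-200b (-0.061), miR-200c (-0.13) and miR-205 (-0.13) without the trend. The difference between the loci lay between 0.07 and 0.15 and that between the seed groups between -0.38 and -0.13. Over all probes, 64 were over 2-fold higher and 14 over 2-fold lower under hypoxia. These counts were 104 and 3 after total signal scaling, 37 and 31 once quantile normalized, 37 and 27 without the trend, 24 and 6 when 50 was added to each signal, 158 and 83 for a 1.5-fold threshold, and 12 and 9 for probes with both signals above the median of their array. After median centring 32 were lower, and with signals of 0 read as 20 there were 99 higher. The dimmest values, those of the star probes and of the miR-429 and miR-141 precursors under normoxia, lie within a few times the lowest listed signal of 20.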
